A study of Mus musculus with 2 samples.

Results

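The replication-dependent histone genes are the clustered genes that supply new histones while DNA is copied. They were taken here as every feature whose symbol begins with Hist1h, Hist2h, Hist3h or Hist4h, without symbols ending in -ps, of which the feature list had 0. This gave 67 of 31055 features: 6 genes of the linker histone H1, 18 of H2A, 18 of H2B, 12 of H3 and 13 of H4. In the GRCm38 build, 54 of them lay in the Hist1 cluster (chr13:21715763-23934851), 10 in Hist2 (chr3:96219865-96270132), 2 in Hist3 (chr11:58948920-58956830), and Hist4h4 lay alone (chr6:136801553-136804415).

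The data were single-cell RNA profiles of medulloblastoma from Math1-Cre;SmoM2fl/fl mice, in which Cre made in cells of the Math1 lineage turns on SmoM2, an active form of the SHH pathway component Smoothened. One library was made from tumour cells taken after FLASH proton irradiation, in which the dose is given at an ultra-high rate, and the other from tumour cells taken after standard proton irradiation. The sample labels give 5 Gy for both libraries and the series design gives 10 Gy. The labels name neither the number of mice behind each library nor their age nor the time after irradiation, and no unirradiated tumour was analysed here. With 1 library for each group, no difference below has a replicate check, and every interval is a 95% interval for counting error only.

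Histones H2A, H2B, H3 and H4 form the core of the nucleosome, and H1 binds the DNA between nucleosomes. The clustered genes are switched on at the start of S phase, and their messenger RNAs normally end in a short stem-loop bound by the protein Slbp in place of a poly(A) tail. When DNA synthesis stops these messages are degraded, although some of the genes also give polyadenylated RNA, in particular in cells that have left the cycle. The libraries were primed on poly(A), so the counts are of histone RNA that carried a tail or was primed within a stretch of A, and the part of this selection in the levels below was not tested.

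The stem-loop is the feature that sets these messages apart, so it is shown for a few genes on which the results turn. A 16-base match, with at most 2 mismatches to the common form or the form of H4 genes, was present in the GENCODE M21 transcript of 46 of the 67 genes: 4 of 6 H1, 11 of 18 H2A, 10 of 18 H2B, 9 of 12 H3 and 12 of 13 H4 genes. It began a median of 31 bases after the stop codon (range 21 to 58). The sequences below are from GRCm38, written 5′ to 3′ with T for U, with the stem-loop in capitals and up to 5 bases on either side. The coordinates are those of the capitals.
Hist1h1e, chr13:23621782-23621797, minus strand: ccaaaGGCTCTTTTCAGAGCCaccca
Hist1h2ae, chr13:23570668-23570683, minus strand: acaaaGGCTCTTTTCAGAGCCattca
Hist3h2a, chr11:58955172-58955187, plus strand: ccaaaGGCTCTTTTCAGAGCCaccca
Hist3h2ba, chr11:58949349-58949364, plus strand: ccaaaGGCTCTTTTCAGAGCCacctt
Hist1h3e, chr13:23561903-23561918, minus strand: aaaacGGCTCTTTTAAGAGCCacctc
Hist1h4d, chr13:23581950-23581965, plus strand: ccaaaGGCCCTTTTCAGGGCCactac
Hist1h4i, chr13:22040966-22040981, minus strand: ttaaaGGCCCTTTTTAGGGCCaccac
The common form was found in 26 genes, among them Hist1h1e, Hist1h2ae, Hist3h2a and Hist3h2ba, and 6 genes, among them Hist1h3e, had the form with AA after the run of T. The exact 16-base form of the H4 genes was found in 7 genes, among them Hist1h4d. Its GGCCC stem was also present in genes with a mismatch elsewhere in the 16 bases, among them Hist1h4i. An exact match to either form was present in 37 of 58797 protein-coding transcripts (0.0629%). For many of the 21 genes without a match, Hist1h1b and Hist1h2an among them, the annotated transcript stopped at the stop codon, so their ends could not be searched. In 23 genes the annotated transcript ended within 100 bases after the stem-loop and in 23 it ran further, and 14 of the genes had the poly(A) signal AATAAA after the stem-loop, Hist3h2a and Hist3h2ba among them. Genes with the longer ends had a median log2 ratio of neuron-like over S phase barcodes of -4.05 (20 genes with enough UMIs), genes with the shorter ends -5.05 (20 genes) and genes without a match -4.84 (16 genes).

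Promoters are shown for the gene with most UMIs (Hist1h1b), for the gene with most UMIs in neuron-like barcodes (Hist3h2ba) and for the H4 gene with most UMIs (Hist1h4d). Each runs from 250 bases before to 50 bases after the RefSeq start in GRCm38.p6. Capitals mark matches on either strand to CCAAT, the box bound by NF-Y, to TATAAA, the TATA box, and to AAACACA, an element known from H1 promoters.
Hist1h1b, chr13:21780576-21780875, minus strand: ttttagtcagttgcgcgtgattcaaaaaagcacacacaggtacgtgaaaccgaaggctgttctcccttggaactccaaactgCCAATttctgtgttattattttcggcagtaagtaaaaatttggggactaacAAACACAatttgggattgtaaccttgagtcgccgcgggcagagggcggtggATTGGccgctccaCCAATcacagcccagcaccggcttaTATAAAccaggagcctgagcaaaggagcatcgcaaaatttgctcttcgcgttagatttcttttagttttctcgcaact
Hist3h2ba, chr11:58948661-58948960, plus strand: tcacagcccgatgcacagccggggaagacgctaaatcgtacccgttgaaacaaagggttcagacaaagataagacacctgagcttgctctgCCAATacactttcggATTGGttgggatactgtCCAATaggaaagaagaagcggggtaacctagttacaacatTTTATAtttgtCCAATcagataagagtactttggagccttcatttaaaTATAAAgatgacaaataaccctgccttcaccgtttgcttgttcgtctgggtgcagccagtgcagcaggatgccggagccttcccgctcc
Hist1h4d, chr13:23581318-23581617, plus strand: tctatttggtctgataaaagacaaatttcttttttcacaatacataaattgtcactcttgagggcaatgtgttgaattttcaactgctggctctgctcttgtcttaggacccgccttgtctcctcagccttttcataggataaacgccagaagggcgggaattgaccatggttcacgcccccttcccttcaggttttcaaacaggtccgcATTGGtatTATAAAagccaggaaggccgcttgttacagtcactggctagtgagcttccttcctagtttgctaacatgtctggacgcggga
Of the 62 members with a RefSeq promoter, 53 (85.5%) held CCAAT, against 37.4% of 32851 mouse promoters of the same length. All 6 H1, 18 H2A, 16 H2B and 10 H3 promoters held it, and 3 of 12 H4 promoters did. TATAAA was present in 35 (56.5%) of the members, against 13.6% of all promoters. AAACACA was present in 9 of the members, 5 of them among the 6 H1 genes, against 7.18% of all promoters. These are matches of letters and say nothing of binding.

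Near copies limit what can be said of single genes. By 90-base windows shared with any other annotated gene, 28 members had more than 50% of their windows shared and 3 had all of them shared. UMIs of these genes could be lost or assigned to a copy. In kept barcodes 0 UMIs were listed for Hist2h2aa2 and Hist1h2bq, which had 100% of their windows shared, and for the testis gene Hist1h2ba. Hist2h3c1 also had 100% shared but had 87 UMIs, and Hist1h2br, with 99.8% shared, had 1395. Of the genes with most UMIs in their type, Hist1h1b had 0% of its windows shared, Hist1h4d 0.858%, Hist3h2ba 8.57%, Hist1h3e 50.2%, mostly with Hist1h3f, and Hist1h2ap 92.4%. Hist1h1a had 0% shared, Hist1h1e 26.2%, Hist3h2a 30.1%, in its case with Trim17, and Hist1h2an 83.9%. The own values of Hist1h2ap, Hist1h2an and Hist1h3e are therefore uncertain. So are those of other members named below with more than 50% shared. They are Hist1h4m (88.5%), Hist2h3b (77.7%), Hist1h3i (72.7%), Hist1h2bl (66.8%), Hist1h2ad (64.4%) and Hist1h2ab (53.6%).

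The FLASH library held 14269 barcodes and the standard library 12867. Barcodes needed 500 or more genes and a mitochondrial share of 10% or less, which left 10366 barcodes with 58357503 UMIs in FLASH and 8461 with 50212938 UMIs in standard, at medians of 5329.5 and 5700 UMIs. The libraries shared 46 barcode sequences. Tumour-lineage barcodes, meaning those that did not reach the marker limits of another cell type, numbered 9679 in FLASH and 7910 in standard. Marker genes that included no histone member sorted part of them into G1/S entry, S phase, G2, M, non-cycling progenitor and neuron-like barcodes. The remainder enter the tumour-lineage sums but none of these states: 1764 barcodes in FLASH and 1374 in standard lay between the limits, 1598 and 1465 were too shallow to sort, and 34 and 32 carried both cycle and neuron markers. Levels are given as CPM, the usual scaling of a gene's UMIs to the total UMIs of its class. Barcodes too shallow to sort still held 154 and 136 CPM of myeloid markers in FLASH and standard. Over the whole tumour lineage these markers summed to 32.5 and 33.4 CPM. Neutrophil markers were at 222 and 169 CPM in the shallow barcodes, against 10.4 and 17.8 CPM over the tumour lineage. Oligodendrocyte lineage markers were at 303 and 373 CPM, against 164 and 149 CPM, and erythroid markers at 194 and 205 CPM, against 64.1 and 76.6 CPM. Astrocyte markers were lower in the shallow barcodes, at 54.7 and 74.1 CPM, against 85.1 and 79.6 CPM. Granule neuron progenitor markers summed to 2846 and 2832 CPM in the progenitors of FLASH and standard and neuron markers to 7714 and 7668 CPM in the neuron-like barcodes. Both classes were drawn with these lists, so the sums describe the gates and do not check them. The progenitor list summed to 2560 and 2528 CPM in G1/S entry and to 1028 and 1025 CPM in neuron-like barcodes. Such classes are ranges of a score: of the barcodes deep enough to sort, 744 of 8081 in FLASH and 531 of 6445 in standard lay within 25% of the limit for cycling.

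Members made up 271823 UMIs in FLASH and 233172 UMIs in standard. H1 genes held 47.6% of these UMIs, H2A 21%, H4 13.3%, H2B 11.7% and H3 6.40%. A few genes carried most of each type. Hist1h1b, which encodes the linker histone H1.5, held 54.3% of H1 UMIs and 25.9% of all member UMIs, and Hist1h4d held 74.1% of H4 UMIs. Hist1h2ap held 38.7% of H2A, Hist3h2ba 34.0% of H2B and Hist1h3e 30.7% of H3 UMIs. In tumour-lineage barcodes 56 of the 67 members had at least 100 UMIs over both libraries, and only these enter the counts of members below.

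**Figure D1:**
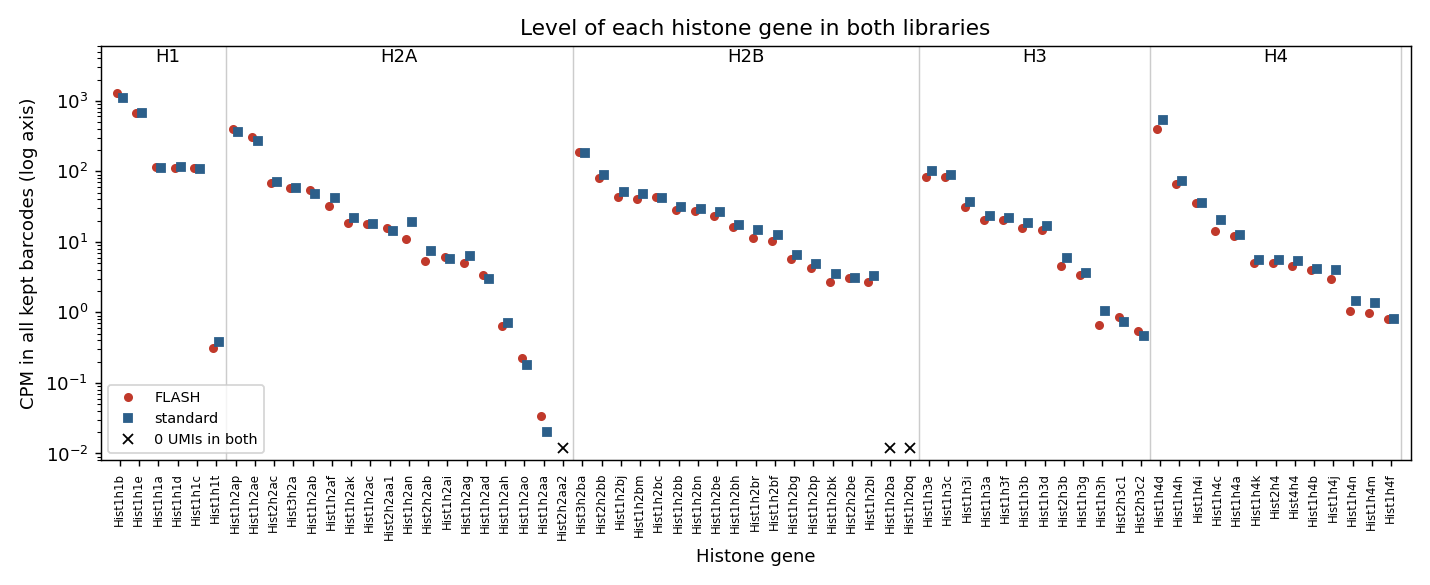
Level of each of the 67 histone genes in all kept barcodes, as CPM on a log axis, grouped by histone type and ordered by total UMIs. Red circles are the FLASH library and blue squares the standard library. Crosses mark the 3 genes with 0 UMIs in both, and within every type a few genes stand far above the others.

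Histone RNA was concentrated in S phase and G2 barcodes. In the FLASH library the members summed to 2489 CPM in G1/S entry, 14866 CPM in S phase, 12944 CPM in G2 and 3020 CPM in M barcodes. In the standard library the same sums were 2796, 15970, 13152 and 3911 CPM. The non-cycling progenitors had 838 and 870 CPM and the neuron-like barcodes 991 and 1005 CPM in FLASH and standard. S phase was thus 15 times the neuron-like level in FLASH (log2 3.91, interval 3.87 to 3.94) and 15.9 times in standard (log2 3.99, interval 3.96 to 4.02). S phase and G2 stood close together, 1.15 times apart in FLASH and 1.21 times in standard, while G2 was 4.29 and 3.36 times the level in M barcodes. The G2 barcodes still held 2847 and 2711 CPM of the S phase marker list in FLASH and standard. That list summed to 4580 and 4613 CPM in S phase and to 1639 and 1660 CPM in M barcodes. The part of cells still in S phase in the G2 level was not tested.

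**Figure D2:**
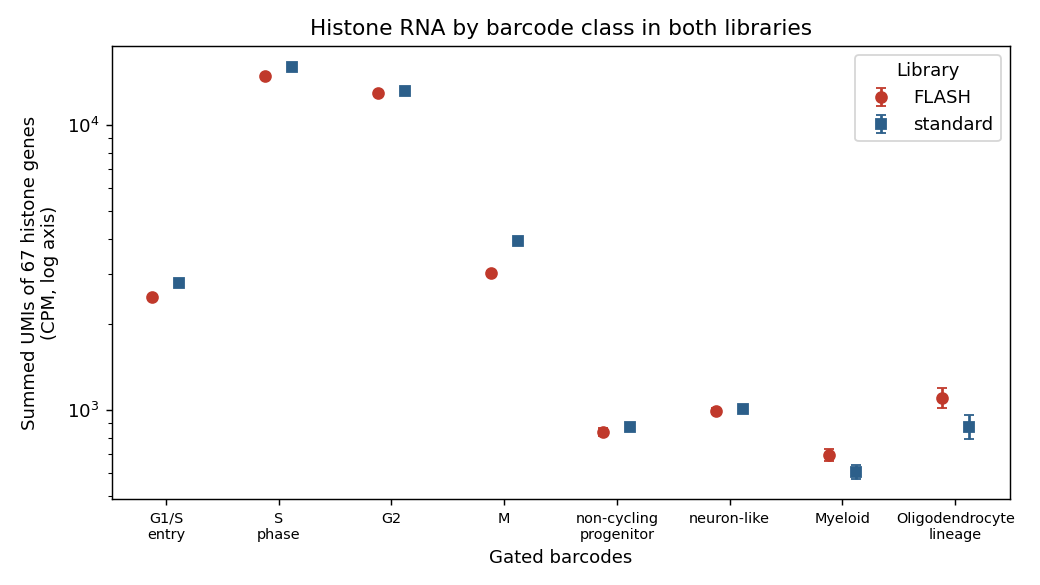
Summed UMIs of the 67 histone genes in each class of barcodes, as CPM on a log axis, with 95% Poisson intervals that cover counting error only. Red circles are the FLASH library and blue squares the standard library. S phase and G2 lie between 12944 and 15970 CPM in both libraries, and all classes outside the cycle shown lie between 606 and 1103 CPM.

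The load was uneven inside a state. In S phase barcodes of FLASH, members were a median of 1.47% of a barcode's UMIs, with the 5th percentile at 0.0566% and the 95th at 2.80%. In S phase barcodes of standard these were 1.51%, 0.0728% and 2.99%. At least 1% of UMIs came from members in 67.6% of S phase barcodes in FLASH (64.7 to 70.4) and 67.5% in standard (64.0 to 70.9). The share was 60.4% and 57.1% in G2, 11% and 14.7% in M, and 7.52% and 7.68% in G1/S entry. Of neuron-like barcodes 0 of 1563 in FLASH and 0 of 1357 in standard reached it, which allows up to 0.236% and 0.271% (Clopper-Pearson). The highest member share in any tumour-lineage barcode was 6.03% in FLASH and 5.43% in standard.

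Arranged around the cycle by the balance of early and late markers, without using the members, the barcodes had their highest member sums in the fifth to seventh of 12 sectors in both libraries. In FLASH the sum was 18563 CPM in the sixth sector, the highest, and 929 CPM in the second, the lowest. In standard the sixth sector was also the highest (19075 CPM) and the second the lowest (980 CPM). The step up was steep: the fourth sector had 3128 CPM in FLASH and 3045 CPM in standard, and the fifth 14045 and 14935 CPM. The way down was less even in standard, where the twelfth sector had 2560 CPM on 46 barcodes (interval 2387 to 2742), above the 1213 CPM of the eleventh, whereas in FLASH the twelfth had 1276 CPM and the eleventh 1744 CPM. H1 had the widest range, with 10159 CPM in the sixth sector and 337 CPM in the second in FLASH, and 9640 and 345 CPM in standard. H2B had the narrowest. It had 1353 CPM in the sixth and 222 CPM in the third sector in FLASH, and 1496 CPM in the sixth and 231 CPM in the second sector in standard.

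**Figure D3:**
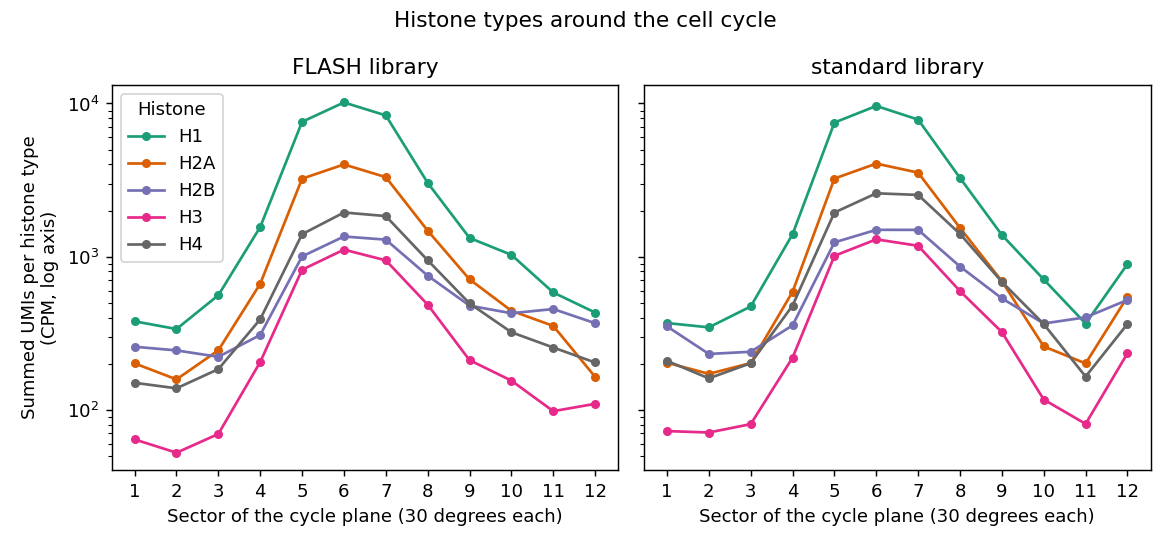
Summed UMIs of each histone type in 12 sectors of 30 degrees around the plane of early and late cycle markers, as CPM on a log axis, with the FLASH library on the left and the standard library on the right. All 5 types are highest in the fifth to seventh sectors in both libraries, and H2B is the flattest line.

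The ratios between cycle states differed by type. They compare classes of barcodes and give no rate in time. The ratio of S phase over G2 was log2 0.29 and 0.42 for H1 in FLASH and standard, and 0.25 and 0.32 for H2A. For H3 it was 0.083 and 0.14, for H4 -0.051 and -0.016, and for H2B -0.068 and 0.068. G2 over M was log2 2.45 and 1.97 for H1, 2.11 and 1.85 for H2A, 1.89 and 1.67 for H3, 1.81 and 1.53 for H4 and 1.24 and 1.18 for H2B. In M barcodes Hist3h2ba gave 184 of the 483 CPM of H2B in FLASH and 172 of 556 CPM in standard. Between S phase and neuron-like barcodes the fold was 34.4 in both libraries for H1, 30.9 and 34.7 for H3, 16.7 and 17.5 for H2A, 14.5 and 15.4 for H4, and 2.56 and 3.24 for H2B. The low fold of H2B was that of a sum in which 1 gene, Hist3h2ba, weighed heavily. It gave 373 of the 424 CPM of H2B in neuron-like barcodes of FLASH and 350 of 407 CPM in standard. The median H2B member was at log2 -4.64 for neuron-like over S phase.

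Among single members, 54 of 56 were at least 1.5 times higher in S phase than in neuron-like barcodes in FLASH and 54 of 56 in standard. Of all 12202 genes with as many UMIs, 23.3% passed that fold in FLASH and 23.4% in standard. The other 2 members, Hist3h2a and Hist3h2ba, were at least 1.5 times lower in S phase, as were 26.9% and 27.3% of all genes. A peak in S phase is what the family is known for. The gene with most UMIs, which had this pattern, is described next, and then genes that differed from it.

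Hist1h1b had 4784 CPM in S phase and 56.7 CPM in neuron-like barcodes of FLASH, and 4464 and 51.8 CPM in standard. With every barcode thinned to 2000 UMIs, 87.6% of S phase barcodes in FLASH and 86.6% in standard had a Hist1h1b UMI. The thinned share was 10.6% and 10.4% in neuron-like barcodes and 10.0% and 7.98% in myeloid barcodes. By this share the neuron-like barcodes were close to a class of another lineage. By CPM, myeloid barcodes had 104 in FLASH and 50.8 in standard, against 56.7 and 51.8 in neuron-like barcodes. Before thinning the shares were 91.7% and 92.6% in S phase, 21.6% and 22.3% in neuron-like and 25.7% and 23.2% in myeloid barcodes, at median depths of 7746.5 and 8901.5, 4621 and 5188, and 6200.5 and 6519 UMIs. The lowest ratios of neuron-like over S phase, over both libraries, were those of Hist1h3g (log2 -6.81), Hist1h1b (log2 -6.42) and Hist1h2bh (log2 -6.38).

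Hist3h2ba, an H2B gene of the small Hist3 cluster, had the opposite pattern. It had 137 CPM in S phase and 373 CPM in neuron-like barcodes of FLASH, and 146 and 350 CPM in standard. In non-cycling progenitors it had 168 CPM in FLASH and 164 CPM in standard. The ratio of neuron-like over S phase was log2 1.36 over both libraries. After thinning, 49.7% of neuron-like barcodes in FLASH and 47.5% in standard had a UMI of it, against 22.2% and 23.0% of S phase barcodes and 4.48% and 7.22% of myeloid barcodes. Before thinning these shares were 74.5% and 76.6%, 56.6% and 61.9%, and 9.54% and 11.2%. Hist3h2ba was the first of all members by UMIs in neuron-like barcodes, with 37.6% of member UMIs in FLASH and 34.8% in standard.

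Hist3h2a, the H2A gene beside it, behaved the same way, with 29.6 CPM in S phase and 132 CPM in neuron-like barcodes of FLASH, and 36.9 and 124 CPM in standard (log2 1.97 over both libraries, neuron-like over S phase). Part of its transcript is shared with Trim17, and the part of those reads in its level was not tested. Hist3h2ba and Hist3h2a together with Hist1h1e, which had 142 and 143 CPM in neuron-like barcodes of FLASH and standard, led the members there. Hist1h1e, which encodes H1.4, also had 2121 CPM in S phase of FLASH and 2288 CPM in standard, so its ratio of S phase over neuron-like was log2 3.90 and 4.0.

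Hist1h2bc, an H2B gene, had a higher level in M than in S phase barcodes. It had 16.4 CPM in G1/S entry, 30.7 CPM in S phase, 36.1 CPM in G2, 50.7 CPM in M, 53.2 CPM in non-cycling progenitors and 18.4 CPM in neuron-like barcodes of FLASH. In standard these were 16.2, 28.8, 35.3, 46.1, 45.2 and 16.2 CPM. S phase over neuron-like was log2 0.73 in FLASH and 0.83 in standard, against 3.91 and 3.99 for the sum of all members. Its highest levels were outside the tumour lineage, with 118 and 123 CPM in myeloid barcodes of FLASH and standard and 227 and 271 CPM in barcodes of the oligodendrocyte lineage. After thinning, 15.5% and 13.7% of myeloid barcodes had a UMI of it, against 4.68% and 6.23% of S phase barcodes and 3.45% and 2.36% of neuron-like barcodes. Before thinning the shares were 38.4% and 35.9%, 19.7% and 20.9%, and 7.17% and 6.41%.

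**Figure D4:**
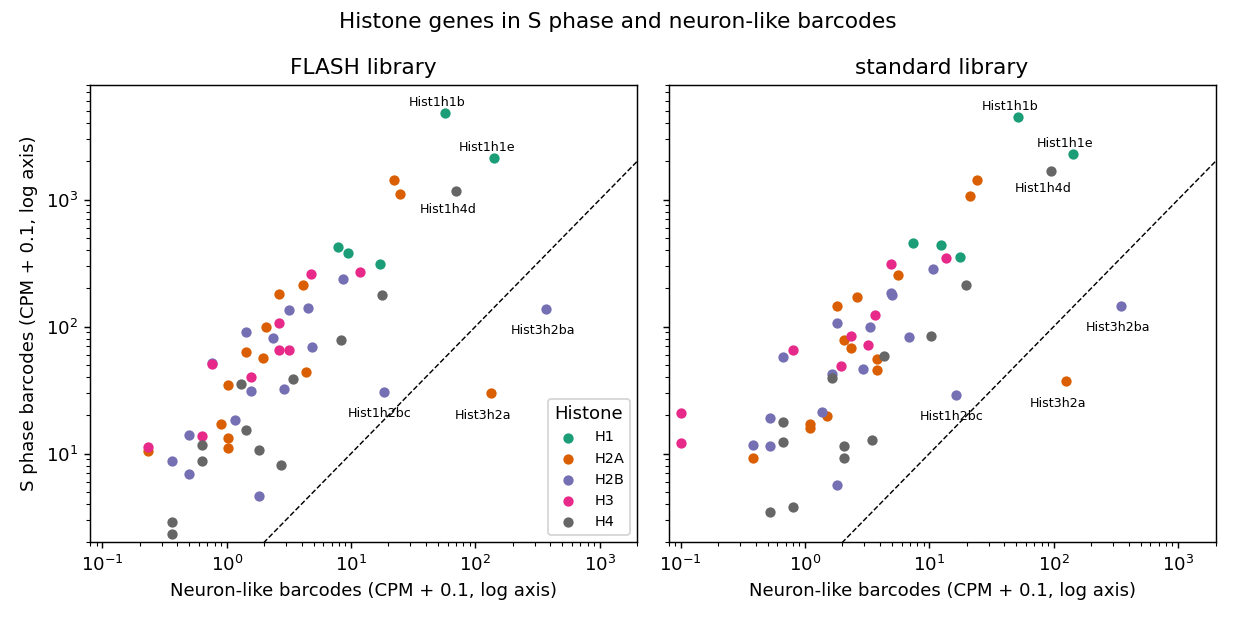
CPM of each of the 56 members with enough UMIs in S phase barcodes (vertical) and neuron-like barcodes (horizontal), both on log axes after adding 0.1 CPM, with FLASH on the left and standard on the right, and colours for the histone type. The dashed line marks equal levels. Hist3h2ba and Hist3h2a lie below it in both libraries, and the other 54 members lie above it.

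Outside the tumour lineage, only myeloid cells and the oligodendrocyte lineage had 50 or more barcodes in each library. The 346 myeloid barcodes of FLASH had 695 CPM and the 323 of standard 606 CPM, and the 72 and 58 barcodes of the oligodendrocyte lineage had 1103 and 874 CPM. Myeloid barcodes of FLASH also had more of the cycle markers, with 451 CPM of the S phase list, against 365 CPM in standard, and the oligodendrocyte lineage had 332 and 252 CPM. The part of cycling cells or of free RNA in these sums was not tested. H2B held 45.8% and 56.5% of member UMIs in the oligodendrocyte lineage, led by Hist1h2bc and Hist3h2ba, and 25.4% and 30.4% in myeloid barcodes, where Hist1h2bc was first in both libraries. Hist1h1c, which encodes H1.2, had 67.1 and 49.5 CPM in myeloid barcodes, against 17.0 and 17.6 CPM in neuron-like barcodes of FLASH and standard. Other cell types had fewer than 50 barcodes in each library and were not compared. Their sums were uneven: erythroid barcodes had 3029 CPM in FLASH (40 barcodes) and 925 CPM in standard (27 barcodes), T cells 538 CPM (10 barcodes) and 3822 CPM (7 barcodes), and astrocytes 851 CPM (8 barcodes) and 3490 CPM (3 barcodes).

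Between the libraries the summed members did not differ in tumour-lineage barcodes beyond counting error. The sum was 4948 CPM in FLASH and 4955 CPM in standard (log2 -0.0022, interval -0.010 to 0.0059). That near equality joined 2 things. S phase barcodes were 11.3% of the tumour lineage in FLASH and 9.33% in standard, while within states the sums were lower in FLASH: log2 -0.17 in G1/S entry, -0.10 in S phase (interval -0.12 to -0.091), -0.023 in G2 and -0.37 in M barcodes (interval -0.40 to -0.34). With the states weighted to the same mix in both libraries, the ratio was log2 -0.11. In non-cycling progenitors and neuron-like barcodes it was -0.054 and -0.020, with intervals that held 0.

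The types did not move together. In S phase barcodes H1 summed to 8025 CPM in FLASH and 7998 CPM in standard (log2 0.0049, interval -0.012 to 0.021), and H2A to 3323 and 3412 CPM (log2 -0.038). H2B summed to 1086 CPM in FLASH and 1320 CPM in standard (log2 -0.28, interval -0.33 to -0.24). H3 summed to 883 and 1084 CPM (log2 -0.30, interval -0.34 to -0.25) and H4 to 1550 and 2156 CPM (log2 -0.48, interval -0.51 to -0.44). Under 7 other ways of filtering, gating and scaling, the S phase ratio stayed below 0 for H2B (-0.33 to -0.26), H3 (-0.31 to -0.26) and H4 (-0.49 to -0.42), and lay on both sides of 0 for H1 and H2A. In G2 the order was the same, with log2 0.13 for H1, 0.032 for H2A, -0.15 for H2B, -0.24 for H3 and -0.44 for H4. In M barcodes all 5 types were lower in FLASH, at log2 -0.35, -0.22, -0.20, -0.46 and -0.72 for H1, H2A, H2B, H3 and H4. S phase barcodes of FLASH were shallower, with a median of 7746.5 UMIs against 8901.5 in standard. With all barcodes thinned to 2000 UMIs, the S phase ratio of H4 was -0.42.

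Gene by gene, 1 of 56 members was at least 1.5 times apart between the libraries in tumour-lineage barcodes, against 0.967% of 12202 genes. That member, Hist1h2an, was lower in FLASH, as were 0.541% of all genes by that fold, and no member was higher by it, as were 0.426% of all genes. Smaller ratios leaned one way: 44 members were below 0 and 12 above, with a median of log2 -0.15, whereas 51.4% of all genes were above 0 with a median of 0.0035. By type, 3 of 5 H1 and 6 of 14 H2A members were above 0, against 2 of 16 H2B, 0 of 9 H3 and 1 of 12 H4 members. The medians were log2 0.0086 for H1, -0.033 for H2A, -0.18 for H2B, -0.20 for H3 and -0.20 for H4. Near copies share reads, so members are not separate observations. Of the 35 members with at most 50% of their windows shared, 28 were below 0.

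In S phase barcodes alone 46 of 53 members with at least 100 UMIs were below 0 (median log2 -0.26), and 4 were at least 1.5 times apart, against 1.22% of 9031 genes. Of all these genes 54.2% were above 0, with a median of 0.014. The 4 members were Hist1h2an (-0.97), Hist1h2bl (-0.77), Hist2h3b (-0.62) and Hist1h4c (-0.60), all lower in FLASH. Most windows of Hist1h2an (83.9%), Hist1h2bl (66.8%) and Hist2h3b (77.7%) were shared, so their own values are uncertain. Hist1h4c had 15.2% shared. Hist1h2bl and Hist2h3b had only 318 and 558 UMIs in all kept barcodes of both libraries. In G1/S entry 32 of 38 members were below 0 (median -0.23), in G2 38 of 47 (median -0.14) and in M 33 of 37 (median -0.40). Of all genes with as many UMIs, 49% were above 0 in G1/S entry, 52.1% in G2 and 51.2% in M, with medians of -0.0044, 0.0080 and 0.0039. In neuron-like barcodes 9 of 15 members were below 0 (median -0.055), and in non-cycling progenitors 9 of 15 (median -0.023), where 51.2% and 50.8% of all genes were above 0.

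**Figure D5:**
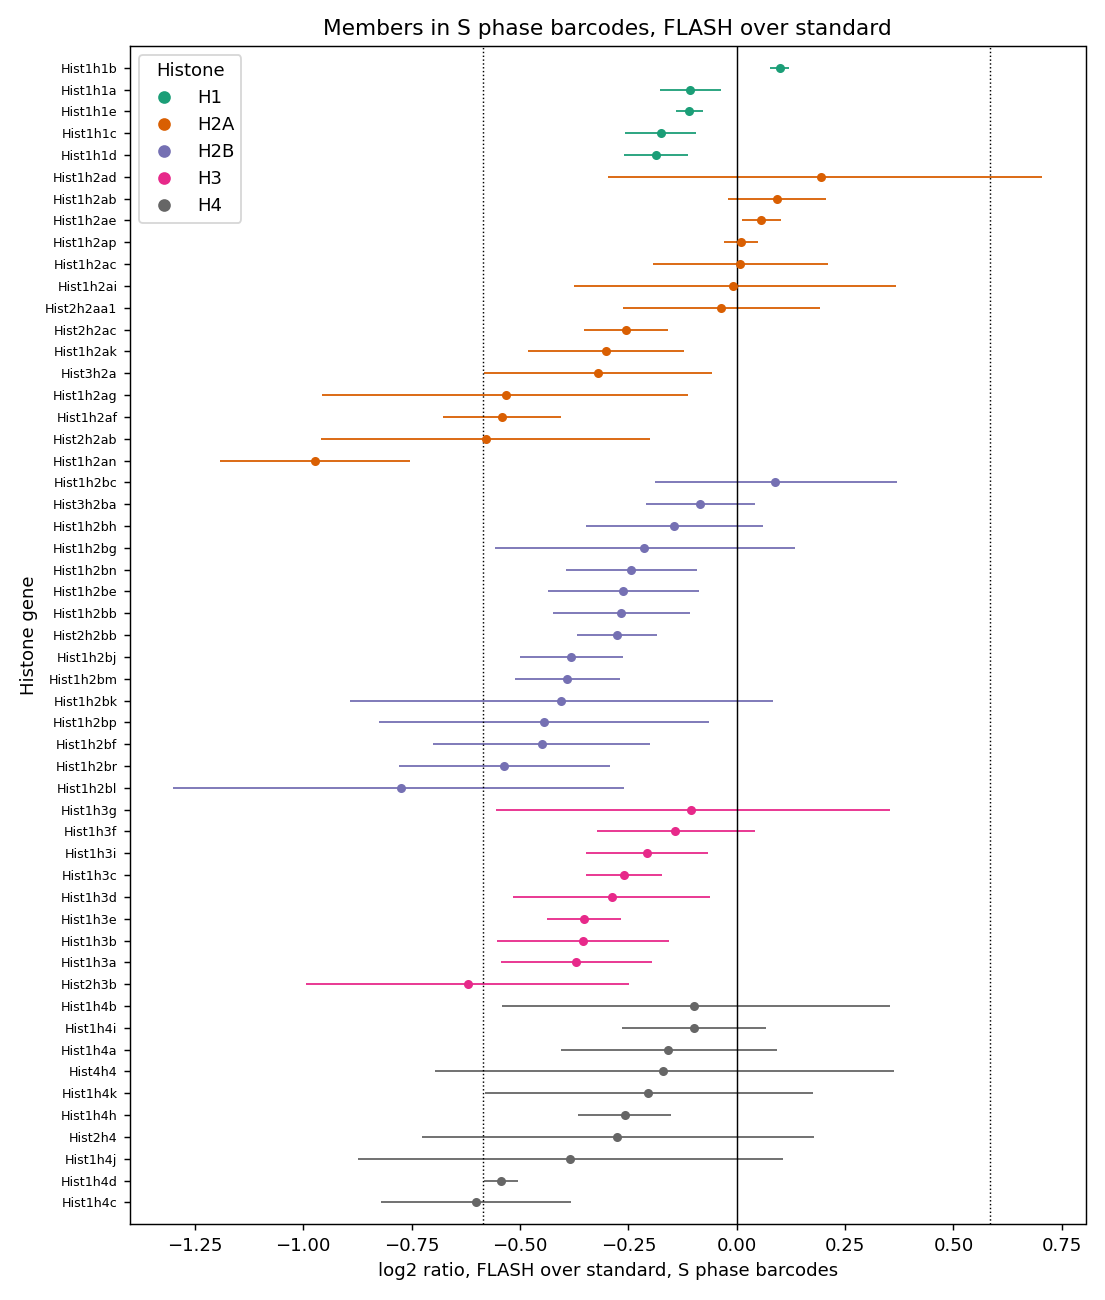
Log2 ratio of FLASH over standard in S phase barcodes for the 53 members with at least 100 UMIs there, grouped by histone type, with 95% intervals for counting error only. The solid line marks 0 and the dotted lines a fold of 1.5. In these barcodes 46 members lie left of 0, all H3 and H4 members shown among them, and Hist1h1b lies right of it.

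Hist1h4d, the main H4 gene, was the largest contributor to the H4 difference. It had 1159 CPM in S phase of FLASH and 1689 CPM in standard (log2 -0.54, interval -0.58 to -0.50). The ratio was -0.54 in G1/S entry, -0.50 in G2 and -0.84 in M barcodes. It was also lower outside the cycle, with 69.6 CPM in neuron-like barcodes of FLASH and 94.9 CPM in standard (log2 -0.45, interval -0.62 to -0.28), and 60.7 and 84.2 CPM in non-cycling progenitors. Over the tumour lineage it was -0.45, with a range of -0.54 to -0.40 over the other settings. Hist1h4c, with 38.7 and 58.7 CPM in S phase of FLASH and standard, was at -0.55 over the tumour lineage. Hist1h4m was at -0.54 on 126 UMIs, but at 0.20 after thinning. Hist1h4i, at 0.021, had a range of -0.043 to 0.058 over the settings.

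Hist1h2an had 34.4 CPM in S phase of FLASH and 67.5 CPM in standard, and log2 -0.81 over the tumour lineage (interval -0.95 to -0.66). It was lower in FLASH in G1/S entry (-0.65), G2 (-0.91) and M (-1.12) too. The 5 barcodes with most of its UMIs held 3.18% of them in FLASH and 2.33% in standard. Most of its sequence is shared with Hist1h2ah and other H2A genes. Hist1h2ap, the H2A gene with most UMIs, had 1438 CPM in S phase of FLASH and 1429 CPM in standard (log2 0.010, interval -0.030 to 0.049). Hist1h2ae had 1107 and 1065 CPM (log2 0.057), and Hist2h2ac 214 and 256 CPM (log2 -0.25), although over the tumour lineage Hist2h2ac was at -0.090 and, thinned, at 0.15.

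The 3 highest ratios over the tumour lineage were those of Hist1h1b (log2 0.23, interval 0.22 to 0.25), Hist1h2ad (0.19, interval -0.12 to 0.51) and Hist1h2ab (0.18, interval 0.11 to 0.26). Hist1h1b stayed above 0 in every setting tried, between 0.11 and 0.27. By state, its ratio was -0.013 in G1/S entry, 0.10 in S phase, 0.25 in G2 and -0.25 in M barcodes. The other main H1 genes were below 0 in S phase: Hist1h1e at -0.11, Hist1h1a, which encodes H1.1, at -0.11, and Hist1h1d, which encodes H1.3, at -0.19. So the near equality of the H1 sum in S phase joined a higher Hist1h1b with lower other members.

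Of the H2B genes with most UMIs, Hist2h2bb had 236 CPM in S phase of FLASH and 286 CPM in standard (log2 -0.28). Hist1h2bj had 140 and 182 CPM (-0.38), and Hist1h2bm 134 and 176 CPM (-0.39). Over the tumour lineage Hist3h2ba was at 0.016 (interval -0.025 to 0.057) and Hist1h2bc at 0.067 (interval -0.029 to 0.16). In neuron-like barcodes Hist3h2ba was at 0.091 (interval 0.012 to 0.17). Among H3 genes, Hist1h3e had 270 and 345 CPM in S phase of FLASH and standard (log2 -0.35). Hist1h3c had 259 and 310 CPM (-0.26), Hist1h3i 106 and 122 CPM (-0.21) and Hist1h3a 64.8 and 83.7 CPM (-0.37). Hist1h4h had 177 and 212 CPM (-0.26).

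Genes that handle histone messages and proteins were read from 3 lists. Of 15 genes for histone RNA processing and turnover, 14 were measured and 13 had enough UMIs. In both libraries 5 of the 13 were at least 1.5 times higher in S phase than in neuron-like barcodes and 0 lower, against 23.3% and 23.4% of all genes higher and 26.9% and 27.3% lower in FLASH and standard. Slbp, the stem-loop binding protein, had 259 CPM in S phase and 44.7 CPM in neuron-like barcodes of FLASH, and 263 and 40.9 CPM in standard. Casp8ap2, a protein of the histone locus body, was at log2 1.41 and 1.30 for S phase over neuron-like in FLASH and standard. Npat, which drives transcription of the clusters, was at 1.28 and 1.21, and Eri1, an exonuclease that acts on histone message ends, at 1.23 and 1.17.

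Of 13 histone chaperones and assembly factors, 10 were at least 1.5 times higher in S phase than in neuron-like barcodes in both libraries, beside the same 23.3% and 23.4% of all genes. Asf1b, which hands on H3 and H4, had 30.1 CPM in S phase and 0.66 CPM in neuron-like barcodes of FLASH, and 36.6 and 1.55 CPM in standard. Chaf1a and Chaf1b, subunits of the assembly factor CAF-1, were at log2 3.82 and 3.65 and at 4.13 and 3.63, but Chaf1b was itself one of the G1/S entry markers. Hat1, which acetylates new H4, was at 2.72 and 2.62. Of 11 replication-independent histone genes, 6 were higher by that fold in both libraries. H2afx, whose product is phosphorylated at DNA breaks, had 359 CPM in S phase and 43.9 CPM in neuron-like barcodes of FLASH, and 387 and 44.3 CPM in standard. Cenpa was at log2 2.65 in both libraries, H2afz at 2.12 and 2.08 and H2afv at 1.23 and 1.24. All 4 had higher levels in M than in S phase. In M barcodes of FLASH and standard H2afx had 680 and 692 CPM. Cenpa had 847 and 840 CPM in M barcodes, against 79.7 and 82.8 CPM in S phase. H2afz had 5592 and 5254 CPM in M barcodes, against 4600 and 4361 CPM in S phase, and H2afv 1586 and 1636 CPM, against 1135 and 1169 CPM.

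Between the libraries 0 genes of these lists were 1.5 times apart in tumour-lineage barcodes, against 0.967% of all genes. The processing genes had 11 above 0 and 2 below (median log2 0.077), the chaperones 11 and 2 (median 0.083) and the replication-independent histones 7 and 4 (median 0.011). Of all genes 51.4% were above 0, with a median of 0.0035. The medians of the clustered H2B, H3 and H4 genes were between -0.20 and -0.18 on the same scale, and those of H1 and H2A were 0.0086 and -0.033. Slbp was at 0.084 (interval 0.031 to 0.14), and H2afx at -0.034 (interval -0.071 to 0.0021).

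Across 8 classes in both libraries (16 points), the genes outside the family whose log2(CPM + 1) was most like that of the summed members were Mis12 (Pearson r 0.947), Nars (0.946), Ncapd3 (0.938), Haus5 (0.937) and Nup155 (0.936), of 8754 genes ranked. The points share libraries and depth, and the classes were drawn by cycle markers, so the values only describe likeness. Ncapd3, a condensin subunit, had 170 CPM in S phase and 39.5 CPM in neuron-like barcodes of FLASH, and 174 and 44.6 CPM in standard.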

How the data were processed

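Single-cell RNA was measured in 2 libraries, 1 after FLASH and 1 after standard proton irradiation. The values in the deposited files are raw UMI counts that the authors obtained from Cell Ranger (6.1.2, per the file headers). The genome was mm10, per the submitters' processing notes, and no source used here names the annotation release. Coordinates and transcripts came from GENCODE M21 by gene ID, promoters from RefSeq (GRCm38.p6).

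Barcodes with 500 or more genes and at most 10% mitochondrial UMIs were kept. Markers of another class (at least 4 detected, 0.5% of UMIs) named 8 other cell types, and barcodes with 0.1% of such markers and no single clear class were set aside as mixed (150 in FLASH, 95 in standard). No doublet caller was run, and leaving out the deepest 5% was an alternative. Other barcodes with at least 2000 UMIs took the cycle state whose marker list was highest relative to its unit (0.45, 0.5, 0.9 and 0.95% of UMIs for G1/S entry, S phase, G2 and M), above 40% of the unit. Neuron-like barcodes and progenitors were below 20% of it for every cycle list. Barcodes between these limits, below 2000 UMIs, or with both cycle and neuron markers took no state but stayed in the tumour-lineage sums. Of cycling barcodes, 741 of 3830 in FLASH and 537 of 2896 in standard had a second list within 10% of the first. These gate values were set after seeing the data. UMIs were summed per class and expressed as CPM. Since 1 UMI stands for 1 captured molecule end, CPM was not divided by gene length. Ratios are log2 after adding 0.5 count, FLASH over standard.

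Intervals at 95% are exact Poisson for CPM, exact conditional binomial for ratios and Clopper-Pearson for shares, and cover counting error only, not the spread between mice or cells. Where a share of 0 is given, its upper limit is that of the Clopper-Pearson interval. No test between groups was made. A fold of 1.5 in genes with at least 100 UMIs stands in for one. The scripts were tested on simulated data. Python 3.11.15, numpy 2.4.6, scipy 1.17.1 and pandas 2.3.3 were used.

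The members and lists were chosen with earlier results of these data known. Named members were the 4 with most UMIs of each type, and the 3 highest and 3 lowest ratios of FLASH over standard and of neuron-like over S phase. From each other list the 4 with the largest S phase over neuron-like ratio were named, and for likeness the 5 best genes with at least 1000 UMIs. Hist1h1c, Hist1h2bl and Hist2h3b were named after their values were seen. Alternatives were other filters on genes and mitochondrial share, thinning to 2000 UMIs, stricter gates, another denominator, a fixed mix of states and leaving out top barcodes.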

Additional observations from a re-analysis of the deposited data

How the results depend on the processing

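No paired analysis was possible because each group had 1 library. For the member sum in tumour-lineage barcodes, FLASH over standard was log2 -0.0022, and it was 0.0124 with at most 5% mitochondrial UMIs, 0.0255 without the deepest 5% of barcodes, 0.0362 after thinning, -0.106 with the same mix of states and -0.0839 without Hist1h1b, so its sign was not stable. Members 1.5 times apart numbered 1 of 56, and 4 of 48 after thinning, 3 with the same mix of states, 2 without the 5 top barcodes, 2 of 63 at 20 UMIs and 16 at a fold of 1.2. S phase over neuron-like was 3.79 in FLASH and 3.86 in standard after thinning, 3.99 and 4.08 with the other denominator, 3.43 and 3.59 without Hist1h1b, and 1.33 and 1.48 with G1/S entry barcodes in place of S phase. Stricter gates gave 4.0 in FLASH, and 5% mitochondrial UMIs 4.05 in standard. Members below 0 numbered 28 of 35 among those with little shared sequence, and in S phase 30 of 34 of these and 30 of 38 after thinning. The median of members lay between -0.24 and -0.095 in all these settings. Of 27 named members, 20 kept their sign throughout, and 239 of 270 of their values lay inside the main interval. For values outside it the cause was not tested. Leaving out Hist1h1b or members with much shared sequence, and the counts below 0 outside the main setting, were chosen after seeing the data. Hist1h4m, whose sign changed after thinning, had 126 UMIs.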
